A study of Mus musculus with 6 samples.

Results

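The genes described here carry glucose into the cell, break it down to pyruvate, and send that pyruvate either out as lactate or into the mitochondrion. They were taken by symbol from a deposited expression table, and all 34 listed genes were found among its 26231 genes. The 34 were 2 glucose transporters, 3 genes for the hexokinase and isomerase steps, 3 phosphofructokinases, 3 bifunctional PFKFB enzymes, 10 genes of lower glycolysis including Bpgm, 4 lactate genes, 5 kinases and phosphatases of pyruvate dehydrogenase, and 4 subunits of that complex. RNA came from mouse embryonic fibroblasts (MEF) of Nf2 fl/fl embryos, in which loxP sites flank part of the gene for the tumour suppressor Merlin. The labels give the strain as FVB and the embryos' age as 14 days, while the study's methods name an earlier day of harvest. All cells were immortalized with SV40 large T antigen, so every library of both lines shares that antigen. One line was transduced with a CMV-GFP control lentivirus (MEF WT) and the other with a lentivirus carrying Cre and GFP under the CMV promoter (MEF Nf2 KO), so each genotype is a single transduced line. Both were grown in medium holding serum (10% FBS), sodium pyruvate and non-essential amino acids (1% each), then kept 24 h without serum before RNA was taken. Each line has 3 libraries, marked A, B and 2018 in the labels and numbered as replicates 1, 2 and 3. No source used here says that they were separate cultures, so p-values measure the spread between these libraries, which may be technical.

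Glycolysis splits glucose in the cytosol and yields ATP, NADH and pyruvate. Lactate dehydrogenase turns pyruvate to lactate and restores NAD, and the monocarboxylate transporters MCT1 (Slc16a1) and MCT4 (Slc16a3) move lactate across the plasma membrane. Pyruvate that enters the mitochondrion is made into acetyl-CoA by the pyruvate dehydrogenase complex, which the kinases PDK switch off and the phosphatases PDP switch on. Several of these genes have 2 or more isozymes with different kinetics, and fibroblasts in culture are known for high glycolytic flux. Hypoxia-inducible factor (HIF) is a known activator of many of them, Slc16a3, Ldha and Pdk1 among them.

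Values are RPKM, read counts scaled to exon length and to library size, so levels can be compared between genes. The depth recovered from the steps of the low values was about 13400000 to 72800000 reads per library, with both 2018 libraries the deepest. A gene was tested where it reached 1 RPKM in at least 3 libraries, which 11067 genes did, and differences are given as log2(RPKM + 1), a scale on which the change of low genes is understated. The tests were fitted with limma over those genes, two-sided, with the Benjamini-Hochberg adjusted p and a threshold of 0.05. Of the 34 genes 33 passed this minimum, and Slc2a3, the neuronal-type glucose transporter GLUT3, did not at 0.01025 to 0.03815 RPKM. Fibroblast markers were abundant, with a summed level of 1855 to 2554 RPKM in MEF WT and 1444 to 1876 RPKM in the libraries labelled MEF Nf2 KO, and their highest gene Vim at 536.3 to 882.1 RPKM. Of the 10 fibroblast markers, Pdgfra, Dcn and Fn1 were lower past the threshold in the line labelled MEF Nf2 KO, which is 3 of 9 tested (33.3%) beside 1.06% of all genes tested, Dcn being tested because of its level in MEF WT. With the replicate number as a block Col3a1 and Thy1 were also lower, 5 of 9 (55.6%) beside 7.53%, and Lum stayed under 1 RPKM in all libraries; their part in the results below was not tested. The level of RNA cannot tell fewer cells of a kind from less RNA per cell.

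Nf2 itself, the targeted gene (chromosome 11, 4765845 to 4849536, minus strand, GRCm38), was at 14.3, 13.7 and 13.1 RPKM in MEF WT A, B and 2018. The corresponding libraries labelled MEF Nf2 KO had 15.4, 12.9 and 13.9 RPKM. The log2 difference was 0.033 (SE 0.096, adjusted p = 0.988 from limma), and the lines overlapped. The table gives a single value over all exons of the gene, so it does not check the loss of part of it. Directions between the lines therefore follow the labels.

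**Figure D1:**
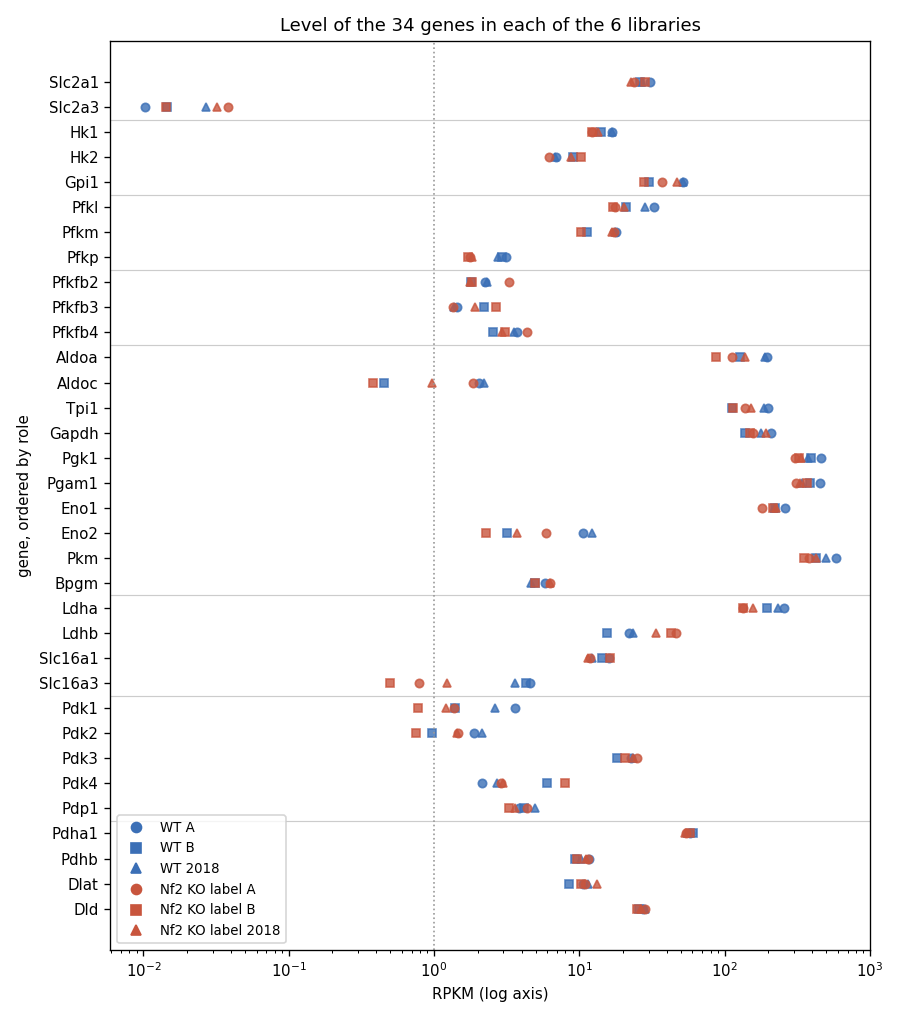
RPKM of the 34 genes on a log axis, ordered by role, with 1 point per library coloured by line and shaped by mark. Pkm, Pgk1 and Pgam1 lie highest, the lowest of their values at 304.8 RPKM, and Slc2a3 lies far below the others, under 0.1 RPKM.

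The level of these genes was highest for the main enzymes of lower glycolysis. Pkm, the pyruvate kinase, was at 351 to 582 RPKM, Pgk1, phosphoglycerate kinase, at 305 to 458 RPKM and Pgam1, phosphoglycerate mutase, at 308 to 453 RPKM, ranges that overlap. Ldha, the lactate dehydrogenase subunit of most glycolytic tissues, followed with Eno1, Gapdh, Tpi1 and Aldoa, which lay between 87.1 and 260.0 RPKM. The main glucose transporter and the hexokinases were lower: Slc2a1, the transporter GLUT1, was at 22.8 to 30.8 RPKM, Hk1 at 12.2 to 16.9 RPKM and Hk2 at 6.20 to 10.2 RPKM. The enzymes that make fructose 2,6-bisphosphate, Pfkfb2, Pfkfb3 and Pfkfb4, all stayed between 1.34 and 4.39 RPKM. The summed level of 16 glycolytic enzymes was 0.954%, 0.735% and 0.816% of all RPKM in MEF WT A, B and 2018. In the libraries labelled MEF Nf2 KO it was 0.673%, 0.663% and 0.728%, so the lines were apart, but by little. As summed RPKM the lines overlapped, since MEF WT B had 1899 RPKM and the library labelled MEF Nf2 KO 2018 had 1917 RPKM.

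Several abundant members have near-identical copies in the genome, and their values are uncertain to that extent. The share of a gene's 31-base stretches that occurs in another gene was 54.7% for Pgk1, 37.1% for Pgam1, 34.7% for Pkm, 33.02% for Ldhb, 28.5% for Eno1 and 28.1% for Gapdh. The Gapdh copy Gm7336 was listed at 187 to 289 RPKM, above Gapdh itself in all 6 libraries, and Eno1b held 46.0% to 50.1% of its sum with Eno1. The Ldhb copy Gm5514 was low, at 1.90 to 5.54 RPKM, and the log2 difference between the lines was 0.98 for Ldhb and 0.99 for their sum. No 31-base stretch of Slc16a3, Slc16a1, Aldoc, Bpgm, Pdk2, Pdk3 or Dlat was shared.

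The 3 lactate genes whose libraries separated the lines are described further below. The 250 bases before their transcription start are shown here, from RefSeq (GRCm38.p6). Slc16a3 is on chr11:120948817-120949066 (plus strand), Ldha on chr7:46845554-46845803 (plus strand) and Ldhb on chr6:142507958-142508207 (minus strand). Each is printed 5′ to 3′ on the gene's own strand, with capitals for ACGTG and GCGTG, the cores bound by HIF, on either strand (CACGT and CACGC when read from the other strand).
Slc16a3: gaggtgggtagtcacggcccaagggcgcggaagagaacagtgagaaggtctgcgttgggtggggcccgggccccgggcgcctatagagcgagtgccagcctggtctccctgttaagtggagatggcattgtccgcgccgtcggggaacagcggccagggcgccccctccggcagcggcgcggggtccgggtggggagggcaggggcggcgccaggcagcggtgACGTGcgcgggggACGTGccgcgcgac
Ldha: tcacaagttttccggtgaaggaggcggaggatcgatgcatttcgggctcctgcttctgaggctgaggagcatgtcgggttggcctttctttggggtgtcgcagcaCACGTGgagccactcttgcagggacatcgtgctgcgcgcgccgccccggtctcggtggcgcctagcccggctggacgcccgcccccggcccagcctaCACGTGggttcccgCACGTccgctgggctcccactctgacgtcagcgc
Ldhb: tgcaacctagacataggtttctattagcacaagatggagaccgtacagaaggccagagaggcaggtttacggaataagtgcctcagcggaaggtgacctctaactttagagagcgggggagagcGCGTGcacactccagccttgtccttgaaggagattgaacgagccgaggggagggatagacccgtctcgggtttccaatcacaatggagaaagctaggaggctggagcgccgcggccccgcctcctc
Slc16a3 held ACGTG at 27 and 14 bases before its start, counted from the first base of the motif. Ldha has 2 starts in RefSeq, and the first, shown here, held 5 matches, of which 4 came from a pair of CACGTG sites, where ACGTG reads on both strands. Ldhb held a single GCGTG at 126 bases before its start. RefSeq promoters matched 32 of the 34 genes, and 26 of the 32 (81.2%) held ACGTG or GCGTG before at least 1 of their starts, beside 63.9% of the 8437 tested genes with a promoter and 41.5% of all 27025 genes. For ACGTG alone it was 15 of 32 (46.9% beside 25.8% of tested genes), for GCGTG 20 of 32 (62.5% beside 52.4%) and for CACGTG, the E-box bound by Myc family proteins and counted within ACGTG, 6 of 32 (18.8% beside 10.3%). Genes with several starts have more bases to hold a match. A match is a description of the sequence and not a bound site.

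The first comparison, of the libraries labelled MEF Nf2 KO with MEF WT, asks which steps of glucose use differ between the lines. The MCT4 gene Slc16a3 was lower past the threshold in the libraries labelled MEF Nf2 KO, the single call among the 33 tested genes (3.03%), beside 1.06% of all genes tested. It reached the minimum for testing only through the MEF WT libraries, where it is high, so this count is a description and supports nothing about the genes as a group. By level alone, Ldha, Slc16a3, Pfkp and Pdk1 were lower and Ldhb was higher in all 3 libraries labelled MEF Nf2 KO than in any of MEF WT. Such separation was seen in 8 of the 33 genes (24.2%), beside 15.1% of all genes tested. Libraries with the same mark deviated from their lines in a like way, which a shift of B shared by both lines would also give. When the replicate number was fitted as a block, 6 of the 33 passed (18.2%), 5 lower and 1 higher, beside 7.53% of all genes. Slc16a3 and Pdk1, both among the 5, needed their MEF WT libraries to be tested, so this count too is a description only. At an unadjusted p under 0.05 there were 10 without the block (30.3%), beside 9.91% of all genes tested. The log2 difference was negative in 23 genes (69.7%, beside 52.1% of all) and positive in 10, with a median of −0.16 beside −0.0078 over all genes tested. That median was −0.096 without MEF WT replicate 1, −0.103 without the library labelled MEF Nf2 KO replicate 2 and −0.089 without replicate 1 of both lines.

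**Figure D2:**
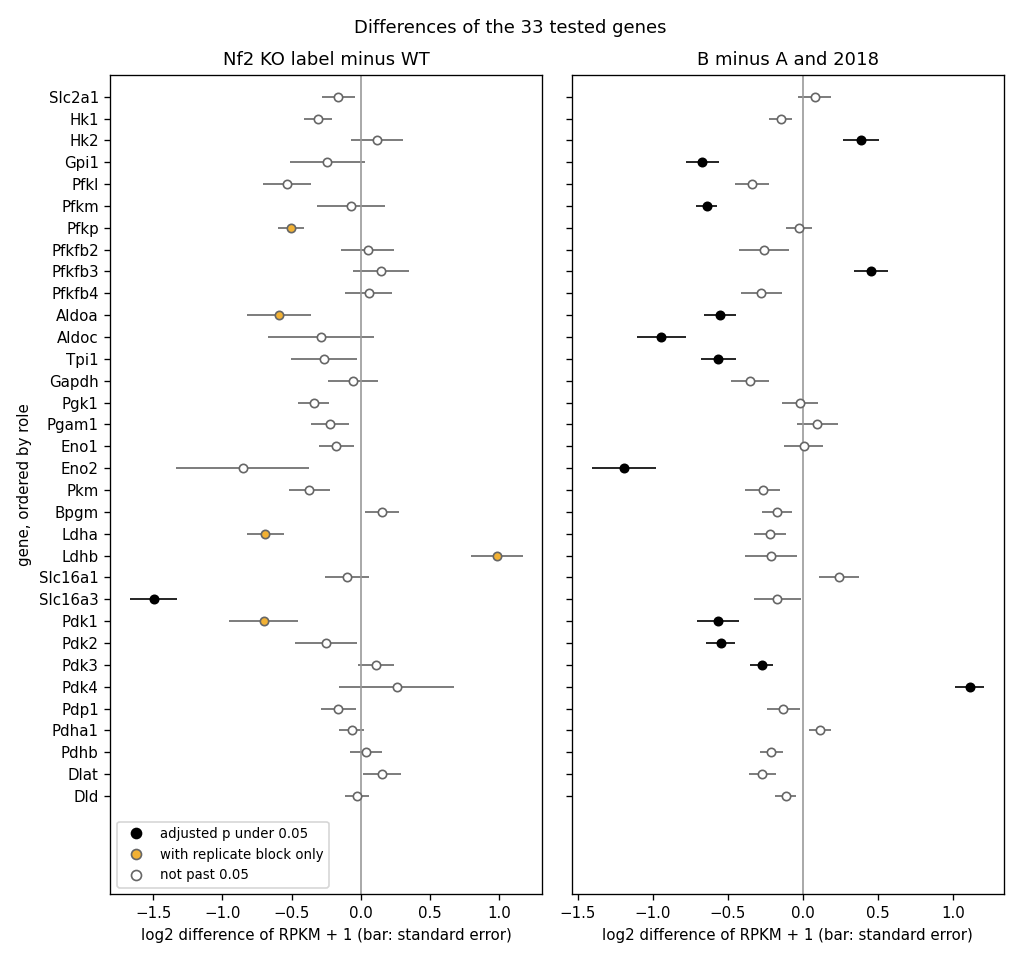
Log2 difference of RPKM + 1 for the 33 tested genes between the lines and between mark B and the other marks, with the standard error as a bar. Slc16a3 (−1.50) lies lowest and Ldhb (0.98) highest between the lines, while Eno2 (−1.19) and Pdk4 (1.11) mark the ends in the comparison of B.

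Slc16a3 (chromosome 11, 120948480 to 120960868, plus strand), which encodes the lactate exporter of glycolytic cells, was at 4.54, 4.31 and 3.59 RPKM in MEF WT A, B and 2018. In the libraries labelled MEF Nf2 KO it was at 0.790, 0.497 and 1.24 RPKM. All 3 MEF WT libraries were high and all 3 others low, with no overlap. The mean was 4.15 ± 0.494 RPKM (SD, n = 3) against 0.842 ± 0.373 RPKM (SD, n = 3), which is 4.93 times as high in MEF WT. The log2 difference was −1.50 (SE 0.17, 95% interval −1.90 to −1.09, adjusted p = 0.0222 from limma, and 0.00983 with the block). Since 1 of the 3 libraries labelled MEF Nf2 KO reached 1 RPKM, the gene was tested because of its level in MEF WT, and these p-values add no support to the levels; with no filter the adjusted p was 0.109. The gene rested on 50.8 to 1165 reads per library. It was past the threshold in 10 of 16 alternatives (log2 difference −2.24 to −1.33, adjusted p 0.00696 to 0.512), and lost its call in the other 6. These were no filter, leaving out MEF WT replicate 1, MEF WT replicate 3 or the library labelled MEF Nf2 KO replicate 1, and leaving out replicate 1 (adjusted p = 0.512) or replicate 3 (0.253) of both lines. Its direction held in all 16.

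Slc16a1, which encodes the more widely expressed transporter MCT1, was at 16.1, 14.3 and 12.3 RPKM in MEF WT and 11.9, 16.4 and 11.5 RPKM in those labelled MEF Nf2 KO. These overlapped, with a log2 difference of −0.10 (SE 0.16, 95% interval −0.49 to 0.29, adjusted p = 0.964 from limma). Slc16a3 made up 22.0%, 23.2% and 22.7% of the summed RPKM of both transporters in MEF WT, and 6.25%, 2.95% and 9.69% in the other line. No share of one line reached those of the other. A two-sided exact permutation test gave p = 0.1, which 3 against 3 libraries cannot go below, and 0.39 adjusted over 13 isozyme shares.

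Ldha (chromosome 7, 46841475 to 46855627, plus strand), the subunit that favours the making of lactate, was at 256, 196 and 234 RPKM in MEF WT A, B and 2018 and at 133.6, 132.6 and 156.2 RPKM in those labelled MEF Nf2 KO. Every MEF WT library lay above every other library. The mean was 229 ± 30.5 RPKM against 141 ± 13.3 RPKM (SD, n = 3 each), with a log2 difference of −0.69 (SE 0.13). It did not pass without the block (adjusted p = 0.0864 from limma) and passed with it (adjusted p = 0.0198).

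Ldhb (chromosome 6, 142490249 to 142507957, minus strand), the subunit that prevails in heart and other oxidative tissues, was higher. It was at 21.9, 15.5 and 23.5 RPKM in MEF WT and at 46.0, 42.4 and 33.8 RPKM in those labelled MEF Nf2 KO, with no overlap. Its mean was 20.3 ± 4.25 RPKM against 40.7 ± 6.27 RPKM (SD, n = 3 each), a ratio of 2.01. The log2 difference was 0.98 (SE 0.19, adjusted p = 0.0839 from limma, and 0.0321 with the block). Ldhb thus held 7.86%, 7.30% and 9.13% of the summed lactate dehydrogenase RPKM in MEF WT, against 25.6%, 24.2% and 17.8% in the other line. Those shares too were apart in all libraries (two-sided exact permutation p = 0.1; adjusted 0.39). Ldha remained the larger of the subunits in all 6 libraries.

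**Figure D3:**
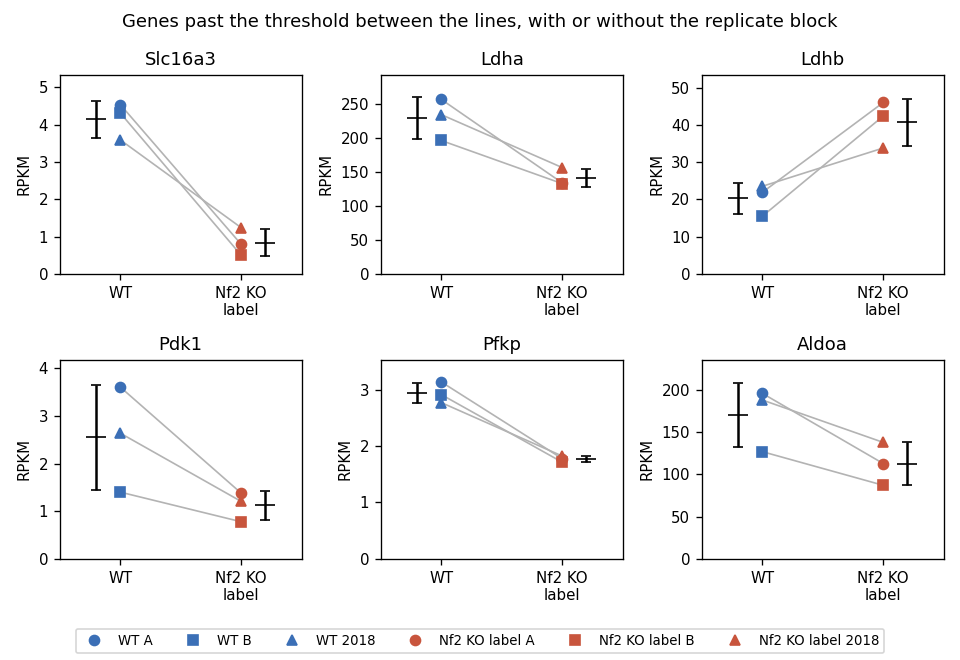
RPKM of 6 genes that differed between the lines past the threshold, with or without the replicate block, in 6 panels with an axis from 0, 1 point per library, lines joining libraries of the same mark, and bars for the mean ± SD of a line. Slc16a3, Ldha, Pfkp and Pdk1 are lower and Ldhb higher in every library labelled MEF Nf2 KO, while Aldoa overlaps (137.8 in the highest of that line against 126.9 in MEF WT B).

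Upstream, the phosphofructokinases control the committed step of glycolysis. Pfkp (chromosome 13, 6579768 to 6648777, minus strand), the platelet-type isozyme, was at 3.14, 2.91 and 2.77 RPKM in MEF WT and 1.78, 1.71 and 1.82 RPKM in those labelled MEF Nf2 KO. Both lines varied little among their own libraries and were apart, with a log2 difference of −0.51 (SE 0.094, adjusted p = 0.0770 from limma, and 0.0195 with the block). Pfkl, the liver-type isozyme, was also apart at 20.8 to 32.5 RPKM against 16.9 to 20.3 RPKM, with a log2 difference of −0.53 (adjusted p = 0.311, and 0.0558 with the block). Pfkm, the muscle type, was at 11.3 to 17.9 RPKM against 10.3 to 17.4 RPKM and overlapped.

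The hexokinases, which trap glucose in the cell, did not pass in either fit. Hk1 was apart at 14.1 to 16.9 RPKM in MEF WT against 12.2 to 13.4 RPKM (log2 difference −0.31, adjusted p = 0.324 from limma, and 0.0609 with the block), whereas Hk2 overlapped. Slc2a1 had a log2 difference of −0.16 (95% interval −0.44 to 0.12, adjusted p = 0.824), and all 3 PFKFB genes lay between 0.050 and 0.15.

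In lower glycolysis 9 of 10 genes had a negative log2 difference, beside 52.1% of all genes tested. Not all of them were negative in each mark. In A, B and 2018, Gapdh was at −0.41, 0.12 and 0.12, Eno1 at −0.53, −0.042 and 0.045, and Tpi1 at −0.52, 0.022 and −0.30. Aldoa, Aldoc, Pgk1, Pgam1, Eno2 and Pkm were negative within each mark, Pgam1 only by −0.069 in B and −0.036 in 2018. By limma 0 passed without the block, and 3 were at an unadjusted p under 0.05, beside 9.91% of all genes. Aldoa (chromosome 7, 126795234 to 126800751, minus strand), the main aldolase here, was at 196, 127 and 188 RPKM in MEF WT A, B and 2018 and 113, 87.1 and 138 RPKM in those labelled MEF Nf2 KO. It was lower within each mark, but the lines overlapped because MEF WT B was below the library labelled MEF Nf2 KO 2018. Its log2 difference was −0.59 (SE 0.23, adjusted p = 0.440 from limma, and 0.0240 with the block). Pgk1 was apart at 372 to 458 RPKM against 305 to 333 RPKM (log2 difference −0.34, adjusted p = 0.335, and 0.140 with the block). Gapdh was near 0 at −0.058 (95% interval −0.49 to 0.37), and Pkm was at −0.37 (adjusted p = 0.461). Bpgm, which makes 2,3-bisphosphoglycerate, was the 1 positive gene, at 0.15.

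At the entry to the mitochondrion, Pdk1 (chromosome 2, 71873224 to 71903858, plus strand), a kinase that turns the complex off, was at 3.61, 1.40 and 2.64 RPKM in MEF WT A, B and 2018. In the libraries labelled MEF Nf2 KO it was at 1.38, 0.780 and 1.21 RPKM. The lines were apart, but only just, since MEF WT B lay close to the highest library of the other line. The log2 difference was −0.70 (SE 0.25, adjusted p = 0.386 from limma, and 0.0263 with the block). As 2 of the 3 libraries labelled MEF Nf2 KO reached 1 RPKM, the gene was tested through its level in MEF WT, and these p-values add no support to the levels. Pdk1 was 5.31% to 11.96% of the summed RPKM of the 4 kinases in MEF WT and 2.58% to 4.47% in the other line, with no overlap (two-sided exact permutation p = 0.1; adjusted 0.39).

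The other kinases, Pdk2, Pdk3 and Pdk4, had log2 differences of −0.25, 0.11 and 0.26, and their lines overlapped. Pdp1, a phosphatase that turns the complex on, was at −0.16 (adjusted p = 0.845 from limma). The 4 subunits Pdha1, Pdhb, Dlat and Dld had log2 differences of −0.066 to 0.15, and their lines overlapped. The 95% interval for Pdha1, the E1 subunit that the kinases phosphorylate, was −0.28 to 0.15.

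**Figure D4:**
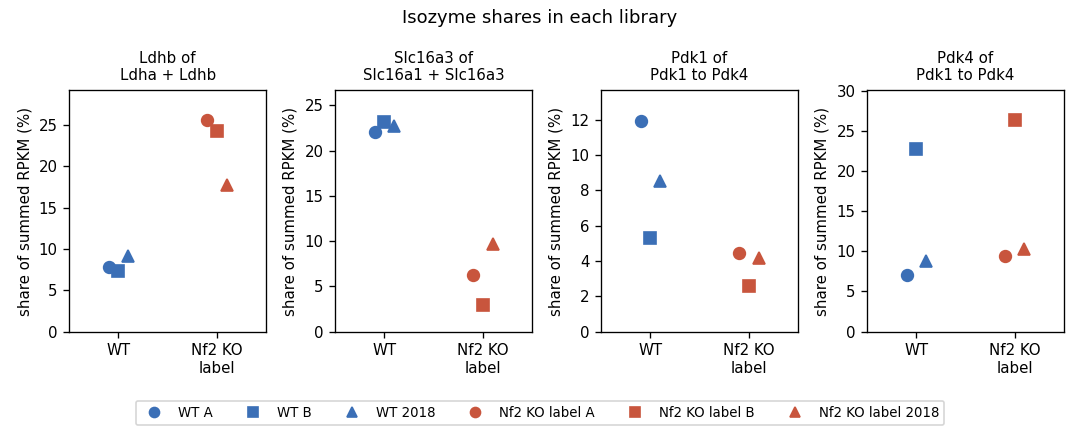
Share of an isozyme in the summed RPKM of its family, in percent, with 1 point per library and 1 panel per isozyme. The shares of Ldhb, Slc16a3 and Pdk1 do not overlap between the lines, and the share of Pdk4 is above 20% in both B libraries and at most 10.3% in the others.

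The second comparison sets both libraries marked B against the 4 marked A and 2018, with the line as a term. The labels say nothing of what the marks stand for. Here 12 of the 33 genes passed (36.4%, beside 30.6% of all genes tested): Pdk4, Hk2 and Pfkfb3 were higher in B, and 9 genes of the glycolytic trunk and the other kinases were lower. The 3 higher were 9.09% of the genes beside 10.8% of all, and the 9 lower were 27.3% beside 19.8%. In 15 of the 33 (45.5%) the B libraries lay outside the range of the other 4, beside 46.6% of all genes. These shares are near those of all genes, so the counts are no result about glycolysis. The median log2 difference was −0.21 beside −0.078 over all genes. The B libraries' medians of log2(RPKM + 1) were 3.04 and 3.05, and those of the other 4 were 3.10 to 3.13. With each library centred on its median, 11 of the 33 passed, beside 3234 of 11067 genes tested. The median over the 33 was then −0.14, beside −0.006 over all genes tested. Leaving out either B library leaves 1 in that group, so the number of genes passing is not given for those fits.

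Pdk4 (chromosome 6, 5483351 to 5496309, minus strand), a kinase known to rise on fasting, was at 5.99 RPKM in MEF WT B and 7.94 RPKM in the library labelled MEF Nf2 KO B. In the A and 2018 libraries it was at 2.14 and 2.71 RPKM in MEF WT and at 2.90 and 2.99 RPKM in the other line. Both B libraries were well above all others. The mean was 2.60 times as high in B, with a log2 difference of 1.11 (SE 0.097, 95% interval 0.88 to 1.33, adjusted p = 0.00103 from limma), and it passed in all 15 alternatives. By line the log2 difference was 1.03 in MEF WT and 1.18 in the libraries labelled MEF Nf2 KO. Pdk4 was 22.7% and 26.3% of the 4 kinases in the B libraries and 7.08% to 10.3% in the others (two-sided exact permutation p = 0.133, which 2 against 4 libraries cannot go below; adjusted 0.289).

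The other kinases were lower in B. Pdk2 was at 0.967 and 0.754 RPKM in B (MEF WT first, here and below), at 1.88 and 2.14 RPKM in MEF WT A and 2018, and at 1.47 and 1.44 RPKM in A and 2018 of the other line, with a log2 difference of −0.55 (SE 0.096, adjusted p = 0.00733 from limma). Pdk3, the most abundant kinase here, was at 18.1 and 20.7 RPKM in B, at 22.6 and 23.5 RPKM in MEF WT A and 2018, and at 25.1 and 23.4 RPKM in A and 2018 of the other line (log2 difference −0.28, adjusted p = 0.0307), a call kept in 6 of 16 alternatives. Both genes lay below the others in both B libraries. Pdk2 was under 1 RPKM in both B libraries and was tested because of its level in the others. Pdk1 was lower in B within each line, at −0.77 in MEF WT and −0.36 in the other line (log2 difference −0.57, adjusted p = 0.0225), but its values overlapped. Without MEF WT B its log2 difference was −0.36 and it did not pass, and its call was kept in 9 of 15 alternatives.

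Of the regulated steps, Hk2, the inducible hexokinase, was at 8.99 and 10.2 RPKM in B, at 6.86 and 6.80 RPKM in MEF WT A and 2018, and at 6.20 and 8.75 RPKM in A and 2018 of the other line, with a log2 difference of 0.39 (SE 0.12, adjusted p = 0.0483 from limma). It was apart by little, and its call was kept in 8 of 16 alternatives. Pfkfb3, which makes the activator fructose 2,6-bisphosphate, was at 2.21 and 2.69 RPKM in B, at 1.43 and 1.38 RPKM in MEF WT A and 2018, and at 1.34 and 1.93 RPKM in A and 2018 of the other line (log2 difference 0.45, adjusted p = 0.0228), and its call was kept in 11 of 15 alternatives. Both were high in both B libraries. Slc2a1 overlapped, with a log2 difference of 0.077 (95% interval −0.18 to 0.34).

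Along the trunk, Gpi1, the glucose-6-phosphate isomerase, was at 29.9 and 27.7 RPKM in B, at 52.0 and 51.5 RPKM in MEF WT A and 2018, and at 37.0 and 46.8 RPKM in A and 2018 of the other line, with a log2 difference of −0.67 (SE 0.11, adjusted p = 0.00588 from limma). Pfkm was at 11.3 and 10.3 RPKM in B, at 17.9 and 17.5 RPKM in MEF WT A and 2018, and at 17.4 and 16.8 RPKM in A and 2018 of the other line. Its log2 difference was −0.64 (SE 0.069, adjusted p = 0.00175), and it passed in all 16 alternatives. Both B libraries were low for both genes, in contrast to Pfkp, whose log2 difference was −0.029. Tpi1, the triose phosphate isomerase, was at 112 and 114 RPKM in B, at 199 and 187 RPKM in MEF WT A and 2018, and at 139 and 152 RPKM in A and 2018 of the other line (log2 difference −0.56, adjusted p = 0.0135). By line its log2 difference was −0.78 in MEF WT and −0.35 in the other line. Without MEF WT B it was −0.35 (adjusted p = 0.195), and the call was kept in 12 of 16 alternatives. Aldoa was lower in B within each line, by −0.59 in MEF WT and −0.51 in the other line (adjusted p = 0.00975 from limma), although its values overlapped. Its call was kept in 12 of 16 alternatives.

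The less abundant isozymes of aldolase and enolase were the lowest in B relative to the others. Eno2 (chromosome 6, 124760053 to 124769673, minus strand), the neuron-type enolase, was at 10.5, 3.16 and 12.2 RPKM in MEF WT A, B and 2018 and at 5.93, 2.27 and 3.75 RPKM in those labelled MEF Nf2 KO. Both B libraries were below the other 4, with a log2 difference of −1.19 (SE 0.21, adjusted p = 0.0104 from limma). Its call was kept in 12 of 16 alternatives. Between the lines Eno2 had a log2 difference of −0.85 (SE 0.48, adjusted p = 0.712, and 0.0793 with the block) and overlapped. Aldoc, the brain-type aldolase, was at 2.03, 0.452 and 2.22 RPKM in MEF WT and 1.86, 0.381 and 0.969 RPKM in the other line, again lowest in B. Its log2 difference for B was −0.94 (SE 0.16, adjusted p = 0.00745), resting on as few as 23.9 reads in a library, and it too was tested because of its level outside B. The major isozyme Eno1 had 0.0046 (95% interval −0.30 to 0.31), and Eno1, Pgk1 and Pgam1 overlapped between B and the others.

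No lactate gene passed in B. Slc16a3 had a log2 difference of −0.17, Ldha −0.22, Ldhb −0.21 and Slc16a1 0.24, and their values overlapped. Of the complex, Pdhb, Dlat and Dld were below the other 4 libraries in both B libraries (log2 difference −0.21, −0.27 and −0.11, adjusted p = 0.0737, 0.0619 and 0.251 from limma), and Pdha1 was above them by 0.11 (adjusted p = 0.260). Gapdh was also below the others, at −0.35 (adjusted p = 0.0735), and −0.33 for its sum with Gm7336.

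**Figure D5:**
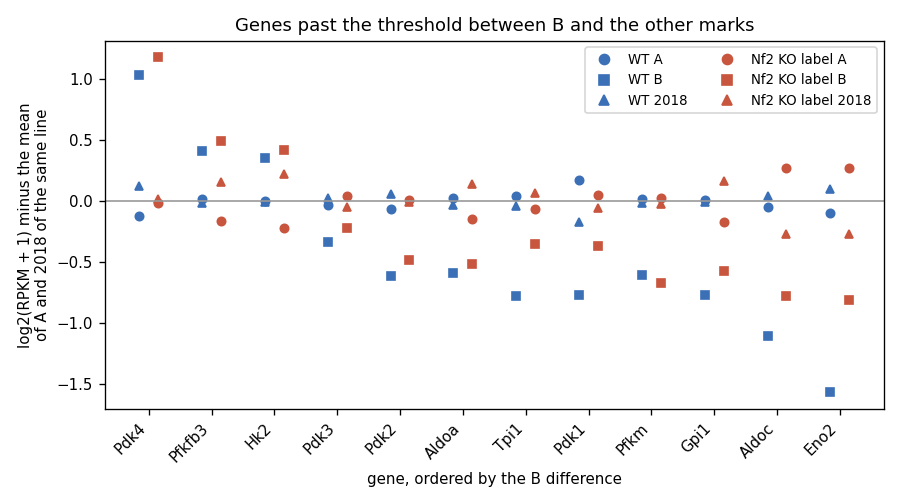
Log2(RPKM + 1) of each library minus the mean of A and 2018 of the same line, for the 12 genes past the threshold in the comparison of B, with 1 point per library. In both lines the B points of Pdk4, Pfkfb3 and Hk2 are above 0 and those of the other 9 genes below it. The A and 2018 points of a line lie equally far on either side of 0.

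Whether the lines differed more in one mark than in another was tested by the interaction of line and B, which rests on 2 residual degrees of freedom. By limma 0 of the 33 genes passed (lowest adjusted p = 0.9999), with 0 at an unadjusted p under 0.05 and 0 of all 11067 genes past the threshold.

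Several values moved with mark B and their part in these results was not tested. Skeletal muscle markers, of which 5 of 6 were in the table, summed to 3.11 and 6.63 RPKM in the B libraries and 0.832 to 1.20 RPKM in the others. Acta1 was the highest of them at 0.252 to 6.25 RPKM, and 4 of the 5 stayed under 1 RPKM. Endothelial markers summed to 3.89 and 4.45 RPKM in B and 1.46 to 1.84 RPKM in the others, nearly all of it Kdr (1.32 to 4.39 RPKM), with the other 4 under 1 RPKM. Fibroblast markers summed to 1444 and 1855 RPKM in B and 1654 to 2554 RPKM in the others, and 5 of 9 tested were lower in B (55.6%, beside 19.8% of all genes), Col3a1 most at −2.37, while 3 of the 9 had a positive log2 difference, up to 0.48. Macrophage markers summed to 6.71 to 11.9 RPKM over all libraries, mainly Cd68 at 5.08 to 8.10 RPKM, and overlapped between marks. Red blood cell markers summed to 0.699 and 0.899 RPKM in B and 1.08 to 1.94 RPKM in the others, with no overlap and Hba-a1 highest, and all epithelial markers stayed under 1 RPKM, with Krt18 highest.

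Genes around the pathway were counted by lists. Between the lines 1 of them passed, Gfpt2, which opens the hexosamine branch from fructose 6-phosphate: it was at 1.22 ± 0.214 RPKM in MEF WT and 0.287 ± 0.0923 RPKM in those labelled MEF Nf2 KO (SD, n = 3 each; log2 difference −0.78, adjusted p = 0.0499 from limma). Its 3 MEF WT libraries alone carried it past the minimum for testing, so the call adds no support to the levels. It was 1 of 15 tested genes of the branches from glycolysis (6.67%, beside 1.06% of all genes tested). In that list 3 genes (20%, beside 9.91% of all) were at an unadjusted p under 0.05. No gene passed among 16 other glucose transport and glycolysis isozymes, 3 of gluconeogenesis, 5 of pyruvate import and the complex, 17 of the tricarboxylic acid cycle and 8 regulators, beside 1, 0, 0, 0 and 0 at an unadjusted p under 0.05. Among 15 tested HIF targets outside glycolysis 0 passed without the block by limma, and 4 (26.7%) were at an unadjusted p under 0.05, beside 9.91% of all genes. With the block 5 passed (33.3%, beside 7.53% of all genes), 4 lower and 1 higher. Lower were Bnip3, a mitophagy receptor (log2 difference −1.02, adjusted p = 0.0146 with the block), the prolyl hydroxylase Egln3 (−0.48), the angiogenic factor Vegfa (−0.42) and Mxi1, a Myc antagonist (−0.36), the last pair named after their values were seen. Adm, a vasodilator peptide, was higher in the libraries labelled MEF Nf2 KO (0.89, adjusted p = 0.0126 with the block).

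In the comparison of B the lists held more calls, mostly lower, beside 19.8% of all genes lower and 10.8% higher. The other transport and glycolysis isozymes had 6 of 16 lower, with Eno3, the muscle enolase (log2 difference −1.18), Slc2a6 (−0.67) and the mutarotase Galm (−0.55) furthest. Gluconeogenesis had 2 of 3 lower, Pck2 (−0.83) and Pcx (−0.73), and pyruvate import and the complex 3 of 5, Pdp2 (−0.62), Pdpr (−0.41) and the pyruvate carrier Mpc1 (−0.32). In the tricarboxylic acid cycle 4 of 17 were lower, Mdh1 (−0.50) and Sdha (−0.34) among them, and Idh3a was higher (0.43). The branches had 6 of 15 lower, Pgd (−0.54), Gfpt1 (−0.53) and G6pdx (−0.49) furthest, the first and last being dehydrogenases of the pentose phosphate pathway. Of 15 HIF targets 5 were lower and 1 higher, with Ddit4 (−1.25), Ndrg1 (−0.76) and Bnip3 (−0.73) furthest. Of 8 regulators, Myc was higher in B (45.1 and 46.0 RPKM against 11.3 to 22.8 RPKM; log2 difference 1.41, adjusted p = 0.00522 from limma) and Hif1a was lower (−0.41, adjusted p = 0.0165).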

How the data were processed

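RNA from both MEF lines was sequenced by GENEWIZ, 3 libraries each. The authors deposited 1 RPKM value per gene and library; aligner and counter are not given in the sources used here, and the submitters' processing notes name mm10. The unit was read from the values: they sum to 250088 to 263424 per library, and multiplied by exon length (GENCODE vM21, 26033 genes) 86.4% to 87.8% of values of up to 20 reads fell within 0.1 read of a whole number, beside 20% for evenly spread values. Depths are thus inferences, and counting error is smallest in the 2018 libraries.

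Values were set to log2(RPKM + 1), filtered at 1 RPKM in at least 3 libraries, and fitted by limma 3.58.1 (R 4.3.3; trend and robust). Isozyme shares used exact permutation tests (scipy 1.17.1), and figures matplotlib 3.10.9. The scripts were tested on simulated data. Replicate numbers were used to pair the libraries for the block. Deviations from the line means of same-numbered libraries correlated at 0.552, 0.819 and 0.516 across genes. A shift of B shared by both lines would by itself make all 3 positive, because the deviations of a line cancel out. They therefore do not show a pairing of the other marks. The block is an alternative because the study's methods name an unpaired test. Other alternatives were limma settings, normalization, pseudocount, filter, a fit without the line term, and each replicate left out.

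All 34 genes are named, with a value in every library for those past the threshold or with a log2 difference of 1 or more in size; in other lists the 3 furthest past the threshold. The genes and lists were chosen with earlier results of these data known.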

Additional observations from a re-analysis of the deposited data

Results flagged for a closer look

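Among the 4 libraries marked A and 2018, the Pfkfb3 value of the library labelled MEF Nf2 KO 2018 stood apart: it was 1.93 RPKM, against 1.34 to 1.43 RPKM in the other 3. Its gap to the nearest library was 0.831 of the whole range on the log2 scale, just past Dixon's critical value for 4 samples. The same ratio was computed for 33 genes, and chance flags about 1 in 20 groups.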

How the results depend on the processing

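Between the lines, 1 of the 33 genes passed, beside 117 of all 11067 tested. No filter gave 0 (9 of 26231 over all genes) and a filter of 5 RPKM 0 (63 of 7117, with Slc16a3 then not tested). The replicate block gave 6 (833 of 11067), and voom on recovered reads, chosen after seeing the data, 2 (146 of 11046). Leaving out replicates gave 0 to 6: 0 without replicate 1 or 3 of both lines, MEF WT replicate 1 or 3, or the library labelled MEF Nf2 KO replicate 1, and 6 without replicate 2 of both. Over all genes tested the count was 0 without replicate 1 or 3 of both lines and 484 without replicate 2 of both. It was 11 without MEF WT replicate 1, and 10 without MEF WT replicate 3 or without the library labelled MEF Nf2 KO replicate 1. The median of −0.164 became −0.244 to −0.089. Nf2 ranged from −0.030 (without the library labelled MEF Nf2 KO replicate 1) to 0.091 when replicates were left out, and was −0.0015 without replicate 1 of both lines. In the comparison of B, 12 of the 33 passed, beside 3386 of all 11067 tested. No filter gave 3 of 34 (884 of 26231 over all genes), a filter of 5 RPKM 7 of 23 (2377 of 7117) and no line term 6. With both B libraries kept, leaving out replicates gave 9 to 14 of the 33. The 9 came without MEF WT replicate 3 (2310 of 11067 over all genes). The 14 came without the library labelled MEF Nf2 KO replicate 1 (2896 of 11067) or replicate 3 (3375 of 11067). Leaving out either B library leaves 1, which is assumed to vary like the others, so no count is given. The median over the 33 was then −0.191 without MEF WT replicate 2 and −0.232 without the library labelled MEF Nf2 KO replicate 2. The B median of −0.212 became −0.158 with quantile normalization, −0.140 with median centring and −0.246 to −0.157 with replicates left out. The causes were not tested.

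Of 99 values of single named genes between the lines, 84 kept their side of the threshold, 6 lost a call, 9 gained one and 0 changed direction. Of 187 in the comparison of B, 141 kept it, 46 lost a call and 0 changed direction. The block changed no call between the lines other than the 5 it added among these genes. Depth limits the genes of few reads, and no gene-level value shows which exons were read.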
